A study of Mus musculus with 9 samples.

Results

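The 10 genes described here encode the catalytic subunit of telomerase (Tert), the shelterin proteins (Terf1, Terf2, Terf2ip, Tinf2, Pot1a, Pot1b and Acd) and 2 telomere-associated factors, Rif1 and Rtel1. They were chosen by name, and all 10 were found among the 22367 protein-coding genes on chromosomes 1 to 19, X and Y. Chromatin accessibility at each gene was read from ATAC-Seq, in which a transposase inserts adapters into open DNA. Accessible regions were taken from 3 kb upstream of a transcription start site (TSS) to the end of the gene. A region that overlapped the 3 kb window was counted as promoter, and one that overlapped the gene outside that window as intragenic. The promoter value is the highest pileup of overlapping tags in the window, counted per 1000000 tags of the library (CPM).

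Telomerase extends chromosome ends by copying an RNA template, and Tert carries out the copying. Shelterin coats the telomeric repeats and keeps chromosome ends from being treated as breaks. Telomerase is low in most differentiated cells, whereas pluripotent stem cells express it.

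All 9 libraries came from cultures that began as mouse embryonic fibroblasts (MEFs) carrying an IRES-EGFP cassette in the endogenous Pou5f1 (Oct4) locus. D0 held MEFs before induction, and D3 held unsorted cells 3 days after infection with pMXs retroviruses for Oct4, Sox2, Klf4 and c-Myc. Thy-1-negative cells were sorted at day 6 (D6T-) and day 9 (D9T-), and SSEA-1-positive cells at day 12 (D12S+) and day 16 (D16S+), while iPSCs were fully reprogrammed. The remaining libraries, D6 siH3.3 and D6 siNT, were made at day 6 after siRNA against the H3.3 genes or a non-targeting siRNA, with the same 4 factors. Both carry a Thy-1-negative label in the sample annotation, whereas the study's own list of libraries gives no sorting for them, so whether they were sorted like D6T- is not settled here. Each condition had 1 library, so no difference below has a replicate check or a p-value. Intervals are 95% exact Poisson intervals of a pileup, or exact binomial intervals of a ratio of pileups, and cover counting error only. In such bulk samples, a larger share of cells with an open promoter and a more open promoter in each cell cannot be told apart.

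Libraries held 13213117 (D9T-) to 31714845 (D0) tags and 36708 (D9T-) to 133132 (D6T-) regions. The median promoter value over protein-coding genes with a region was 0.820 CPM at D0, 1.65 at D3 and 2.71 in D6T-. It was 1.36 in D9T-, 1.93 in D12S+, 1.84 in D16S+ and 1.02 in iPSCs, with 1.23 in D6 siH3.3 and 1.19 in D6 siNT. Because this median differed between libraries, ratios are also given after dividing each library by this median. The percentile of a gene among the promoters with a region in its own library is given for the same reason. This set held 58.0% of protein-coding genes at D0, 68.3% in D6T-, 50.4% in D9T- and 63.9% in iPSCs. Genes without a region are left out of the ranks, so a low percentile is not a rank among all genes. Of 7 pluripotency markers, 1 to 3 had a promoter region in D0, D3, D6T- and D9T-, and 6 or 7 in D12S+, D16S+ and iPSCs. In D6 siH3.3 and D6 siNT, 1 did. Of 6 fibroblast markers, 5 had one at D0 and in D6T-, 6 at D3, in D12S+ and in D16S+, 4 in iPSCs, 3 in D9T- and D6 siNT, and 2 in D6 siH3.3. Whether other cells in the late libraries contributed to the values below was not tested.

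A promoter region was called in all 9 libraries for 9 of the 10 genes, against 43.9% of all protein-coding genes. Rtel1, a helicase that unwinds telomeric loops, was the exception, with no region in D9T-, the library with the fewest tags. The lowest pileup called there was 7 tags, or 0.530 CPM. Summits lay close to the first annotated TSS, within 280 bp of it in every library for all genes other than Acd. The plot of promoter values by library shows each gene beside the median promoter.

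**Figure D1:**
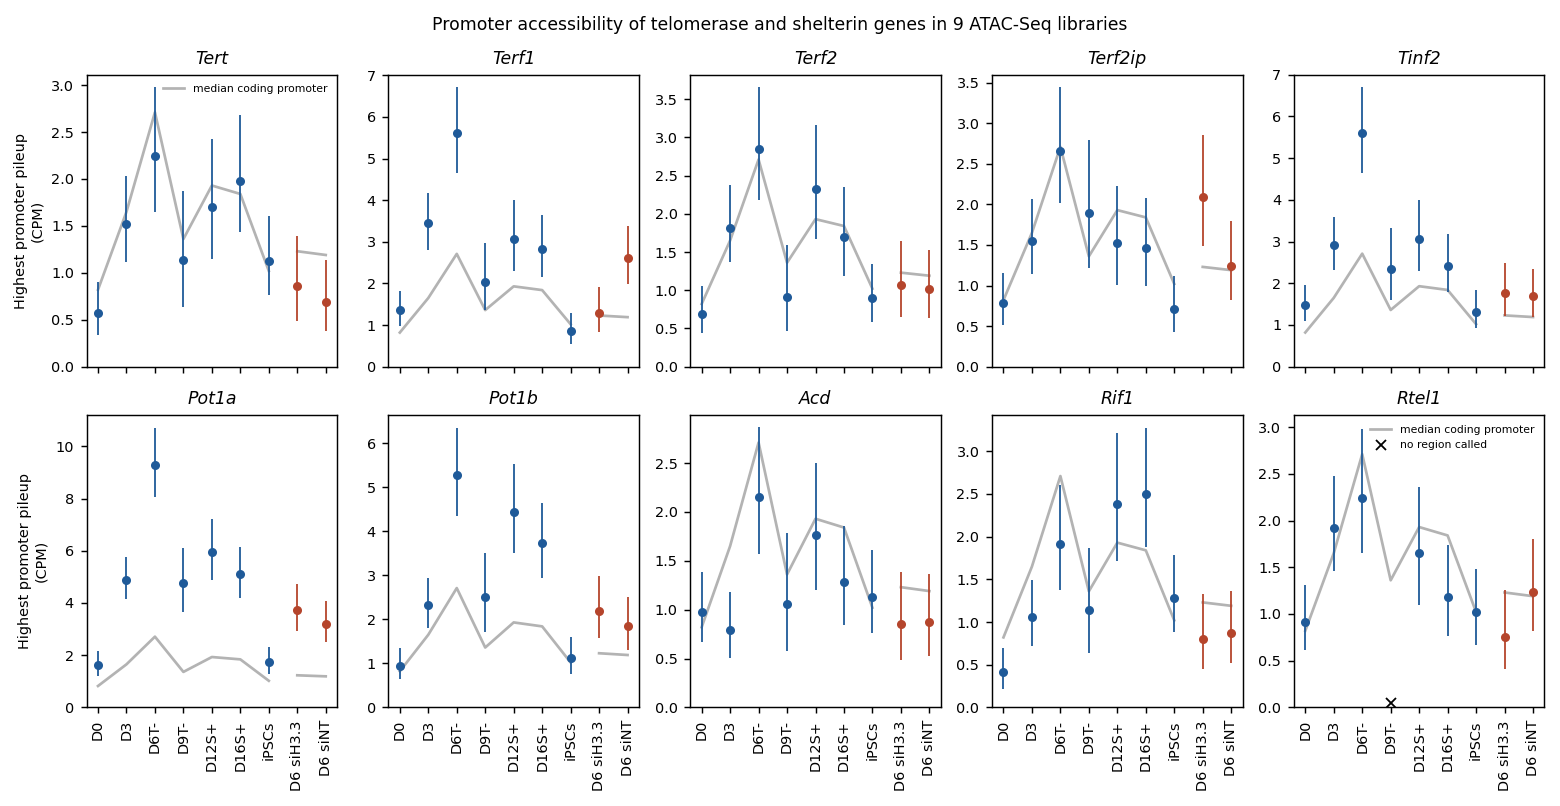
Highest promoter pileup (CPM, linear axis from 0, scale set per gene) of the 10 genes in the 7 time-course libraries (blue) and the 2 siRNA libraries (red), 1 library each. Bars are 95% exact Poisson intervals, the grey line is the median promoter of all protein-coding genes with a region, and a cross marks a library without a region. Pot1a lies above the median in every library, and Rif1 crosses from below it at D0 to above it at D12S+.

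Tert lies on chr13:73764449-73786489 (mm9, plus strand; ENSMUSG00000021611.7). Its promoter is shown because it belongs to the catalytic subunit and held an E-box (CACGTG), the site of Myc-family factors. The 300 bases chr13:73764199-73764498 run from 250 before the TSS to 50 from it, with GC boxes (CCGCCC, the reverse complement of GGGCGG) and the E-box in capitals.

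Tert: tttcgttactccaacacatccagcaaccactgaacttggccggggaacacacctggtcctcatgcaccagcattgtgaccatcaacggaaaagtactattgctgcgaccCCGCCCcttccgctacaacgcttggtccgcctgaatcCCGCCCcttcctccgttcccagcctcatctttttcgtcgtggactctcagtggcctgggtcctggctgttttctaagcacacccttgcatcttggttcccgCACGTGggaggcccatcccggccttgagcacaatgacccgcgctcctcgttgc

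Promoter values of Tert were 0.568 CPM at D0, 1.52 at D3, 2.24 in D6T-, 1.14 in D9T-, 1.70 in D12S+, 1.98 in D16S+ and 1.13 in iPSCs. The interval at D0 (0.336-0.897, 18 tags) lay below those at D3, D6T-, D12S+ and D16S+ and overlapped those at D9T- (0.635-1.87) and in iPSCs (0.761-1.61). The intervals of neighbours in the order of the 7 values overlapped. Over D0, the value was 2.68-fold at D3 (interval 1.52-4.91), 3.50-fold at D16S+ (1.97-6.45) and 1.99-fold in iPSCs (1.07-3.79). Relative to the library median the same ratios were 1.33, 1.56 and 1.60. Within its library, Tert stood at percentile 21.3 at D0, 46.1 at D3, 40.8 in D6T- and 36.2 in D9T-. It was at 43.7 in D12S+, 53.9 in D16S+ and 59.3 in iPSCs, and at 26.3 in D6 siH3.3 and 15.8 in D6 siNT. D0 alone had another promoter region of 18 tags at chr13:73762259-73762505, with its summit at position -2078 from the TSS.

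Terf1 (TRF1), which binds duplex telomeric repeats, lies on chr1:15795739-15833551 (plus strand). Its promoter held no GC box, which 8 of the 10 genes had, and carried 2 CCAAT boxes (CCAAT and its reverse complement ATTGG, capitals). The 300 bases are chr1:15795489-15795788.

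Terf1: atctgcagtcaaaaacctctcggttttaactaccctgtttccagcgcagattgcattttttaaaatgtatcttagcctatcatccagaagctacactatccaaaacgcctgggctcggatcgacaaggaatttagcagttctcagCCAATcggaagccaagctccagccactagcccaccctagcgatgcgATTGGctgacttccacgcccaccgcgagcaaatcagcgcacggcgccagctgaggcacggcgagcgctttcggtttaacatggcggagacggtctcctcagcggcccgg

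Terf1 had 1.36 CPM at D0, 3.44 at D3, 5.61 in D6T-, 2.04 in D9T-, 3.07 in D12S+, 2.83 in D16S+ and 0.865 in iPSCs. Its iPSC value was the lowest of the 7, and it moved from percentile 83.8 at D0 and 74.4 in D16S+ to 37.1 in iPSCs. The ratio of iPSCs to D0 was 0.638, with an interval of 0.367-1.08 that included 1. The study's text names Terf1 as a gene gaining H3.3, expression and accessibility in reprogramming, while the figure legend names Terf2. From D16S+ to iPSCs the value was 3.27-fold lower (interval 1.99-5.55), or 1.81-fold lower relative to the library median.

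Terf2 (TRF2), which shapes the protective telomeric loop, lies on chr8:109593300-109620447 (minus strand). Values were 0.694 CPM at D0, 1.82 at D3, 2.85 in D6T-, 0.908 in D9T-, 2.33 in D12S+, 1.70 in D16S+ and 0.903 in iPSCs. Its percentile ranged from 21.0 in D9T- to 61.7 in D12S+. Terf2ip (RAP1), the partner of TRF2, lies on chr8:114535259-114544428 (plus strand), and the TSS of Kars, a lysyl-tRNA synthetase gene, was 36 bp away on the opposite strand. Its value went from 0.788 CPM at D0 to 1.55 at D3, 2.66 in D6T-, 1.89 in D9T-, 1.53 in D12S+, 1.46 in D16S+ and 0.715 in iPSCs. The region covers both starts, so it cannot be assigned to Terf2ip or Kars alone.

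Tinf2 (TIN2) links TRF1 and TRF2 to the rest of shelterin and lies on chr14:56295455-56300654 (minus strand). With 1.48 CPM at D0, it had 2.91 at D3, 5.61 in D6T-, 2.35 in D9T-, 3.07 in D12S+, 2.41 in D16S+ and 1.32 in iPSCs. It ranked above the median promoter in all 9 libraries, between percentiles 65.6 and 87.9. Acd (TPP1), which recruits telomerase to the telomere, lies on chr8:108222058-108224995 (minus strand). Its TSS was 59 bp from that of Pard6a, a cell polarity gene on the opposite strand. The highest Acd promoter value was 0.977 CPM at D0, 0.794 at D3, 2.15 in D6T-, 1.06 in D9T-, 1.76 in D12S+, 1.28 in D16S+ and 1.13 in iPSCs. Its summit lay 357 to 595 bp upstream, inside Pard6a, in 8 of 9 libraries and 19 bp upstream at D16S+. At D3 and in D6T-, D12S+ and D16S+ the called region also covered the Acd TSS. A separate region over that TSS had 18 tags at D0, 21 in iPSCs, 15 in D6 siH3.3 and 11 in D6 siNT, and none was called in D9T-.

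Pot1a and Pot1b, the mouse pair of single-strand telomere-binding proteins, had high promoter values. Pot1a (chr6:25693737-25759246, minus strand) is shown because it had the highest promoter of the 10 genes in every library. The 300 bases are chr6:25759197-25759496 on the minus strand, with an ETS site (CCGGAA) and a GC box (CCGCCC) in capitals.

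Pot1a: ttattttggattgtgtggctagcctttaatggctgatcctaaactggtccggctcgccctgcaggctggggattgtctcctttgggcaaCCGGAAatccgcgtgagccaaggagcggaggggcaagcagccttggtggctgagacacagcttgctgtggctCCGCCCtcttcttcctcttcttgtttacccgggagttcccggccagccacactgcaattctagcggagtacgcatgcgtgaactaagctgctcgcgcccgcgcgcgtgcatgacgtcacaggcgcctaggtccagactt

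Pot1a had 1.64 CPM at D0, 4.90 at D3, 9.30 in D6T-, 4.77 in D9T-, 5.96 in D12S+, 5.10 in D16S+ and 1.73 in iPSCs. It stood between percentiles 86.2 (iPSCs) and 97.6 (D9T-), so D0 and iPSCs were its lowest libraries in CPM and iPSCs by rank. Pot1b (chr17:55791323-55851926, minus strand) had 0.946, 2.32, 5.28, 2.50, 4.43, 3.73 and 1.13 CPM over the same 7 libraries. It went from percentile 60.0 at D0 to 90.9 in D12S+ and 87.5 in D16S+, and was at 59.3 in iPSCs. Between D16S+ and iPSCs, the value was 2.95-fold lower for Pot1a (interval 2.07-4.26) and 3.31-fold lower for Pot1b (2.15-5.22).

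Rif1, which binds telomeres and controls replication timing and repair, is a gene of chromosome 2 on the plus strand, and its promoter moved most in rank between D0 and the SSEA-1-positive libraries. Rif1 had 0.410 CPM at D0 (13 tags), 1.06 at D3, 1.92 in D6T-, 1.14 in D9T-, 2.38 in D12S+, 2.50 in D16S+ and 1.28 in iPSCs. The lowest pileup called at D0 was 11 tags, so the base of its ratios to D0 lies near that floor. Among genes with a region in the library, Rif1 was at percentile 3.18 at D0 and between 30.3 and 36.2 at D3, D6T- and D9T-. It was at 63.1, 67.8 and 68.8 in D12S+, D16S+ and in iPSCs. Over D0 the value was 6.11-fold at D16S+ (interval 3.28-12.2) and 3.12-fold in iPSCs (1.61-6.44). Relative to the library median these ratios were 2.72 and 2.52. Of the 9 genes with a region in all 7 time-course libraries, Rif1 alone had its highest value at D16S+, as did 6.37% of protein-coding genes. The other 8 were highest at D6T-, as were 89.1% of protein-coding genes.

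Rtel1 (chr2:181054444-181091321, plus strand) had 0.914 CPM at D0, 1.92 at D3, 2.24 in D6T-, 1.65 in D12S+, 1.18 in D16S+ and 1.02 in iPSCs. By rank it went from percentile 57.2 at D0 and 58.0 at D3 to 25.7 in D16S+ and 50.3 in iPSCs. The ranks of all 10 genes are set side by side in the grid of percentiles.

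**Figure D2:**
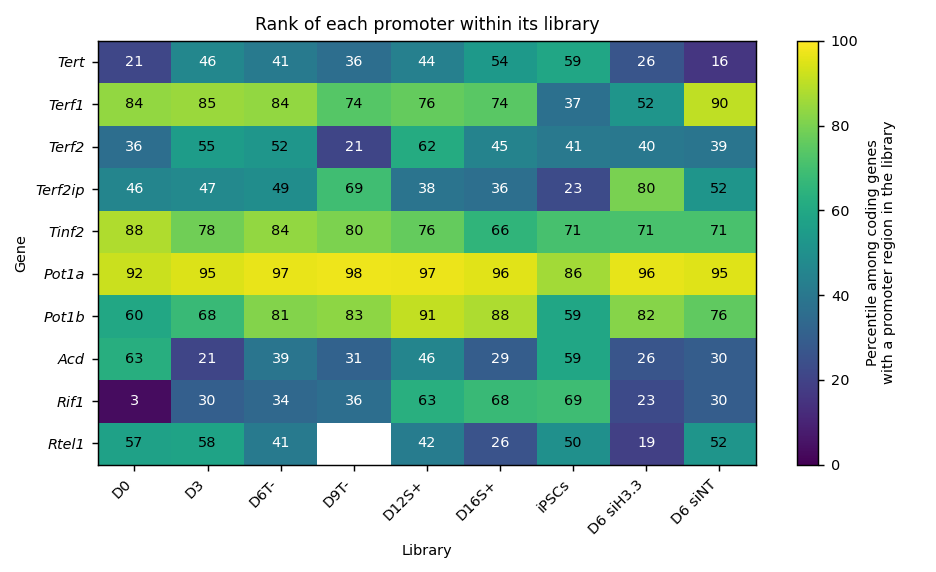
Percentile of each promoter (rows) among all protein-coding genes with a promoter region in the same library (columns), printed rounded in each cell and shown as colour from 0 to 100, left blank where no region was called. Pot1a is at 86.2 or above in every library, and Rif1 goes from 3.18 at D0 to 68.8 in iPSCs.

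Compared with D0, the promoter value was at least 2-fold higher for 7 of 10 genes at D3, against 61.6% of protein-coding genes with a region in both libraries. All 10 passed this ratio at D6T-, against 89.5%. In D9T-, 5 of the 9 genes with a region passed (Tert, Terf2ip, Pot1a, Pot1b and Rif1), against 29.3%, with Tert at 2.00, on the limit. In D12S+ 7 of 10 passed, against 68.9%, and in D16S+ 6 of 10 did (Tert, Terf1, Terf2, Pot1a, Pot1b and Rif1), against 64.1%. In iPSCs only Rif1 passed, against 10.4%, and none was at least 2-fold lower, against 0.947%. The median ratio of the genes with values was 2.49 at D3, 4.03 in D6T-, 2.00 in D9T-, 2.63 in D12S+, 2.27 in D16S+ and 1.13 in iPSCs. Over all protein-coding genes the medians were 2.26, 3.80, 1.62, 2.44, 2.35 and 1.26. The 6 comparisons share the D0 library.

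Scaled to the library median, none of the genes was 2-fold higher at D3, D6T- or D9T-, against 4.33%, 5.15% and 3.57% of protein-coding genes. Rif1 was the single gene past 2-fold on this scale in D12S+, against 3.76%, in D16S+, against 5.73%, and in iPSCs, against 3.71%. In D12S+ its ratio was 2.47, and Pot1b, at 1.99, was just under the limit. At D16S+, 5 of the 10 scaled ratios were below 1 (Terf1, Terf2ip, Tinf2, Acd and Rtel1), beside 5472 of 11850 protein-coding genes. Acd was lower at D3 by this measure, with a ratio of 0.403 to D0, the 1 gene of 10 at least 2-fold lower, against 5.01%. The D0 value is that of the region inside Pard6a. For called regions covering the Acd TSS, the ratio was 1.40 in CPM (24 and 18 tags, interval 0.728-2.74) and 0.693 relative to the median. Neither was 2-fold lower. The summit of that region lay 9 bp upstream at D0 but 357 bp upstream, inside Pard6a, at D3. Signal at the Acd TSS alone was therefore not compared. Acd also had the lowest ratio in D6T- (0.665). The paired ratios to D0 show both scales.

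**Figure D3:**
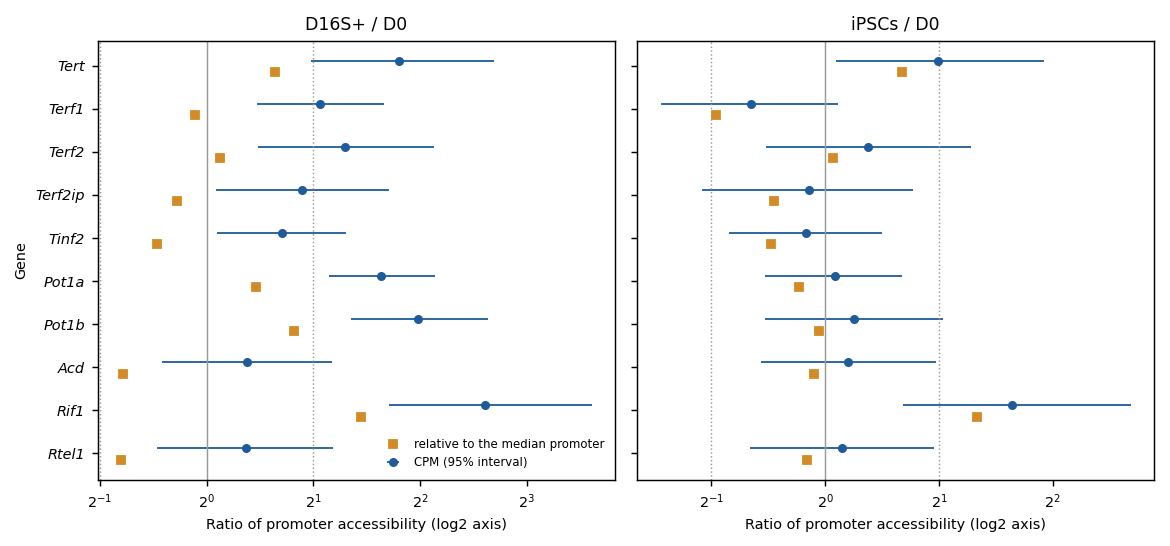
Ratio of each promoter at D16S+ (left) and in iPSCs (right) to D0 on log2 axes: blue points are CPM with 95% exact binomial intervals, orange squares the same ratio relative to the median promoter of each library, and dotted lines mark 2-fold. Rif1 is past 2-fold on both scales in both panels, at 6.11 and 2.72 for D16S+.

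From D16S+ to iPSCs, the value was at least 2-fold lower for 4 of 10 genes (Terf1, Terf2ip, Pot1a and Pot1b), against 38.1% of protein-coding genes. Relative to the library median none was, against 1.89%. Tert and Rif1 had ratios of 0.569 (interval 0.344-0.931) and 0.511 (0.322-0.801) in CPM, and 1.03 and 0.927 relative to the median. Between D12S+ and D16S+ all 10 ratios lay between 0.717 and 1.16, and the interval of each included 1.

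The siRNA pair addressed accessibility at day 6 after an early depletion of the histone variant H3.3. The study describes this knockdown as transient and limited to the early part of reprogramming, and its methods place the early siRNA before reprogramming began. It shows western blots of H3.3 after such an early knockdown, at the start and at day 6. The loss of H3.3 in the cells of these libraries cannot be checked from accessibility. After the knockdown Terf1 had 24 tags, or 1.29 CPM (interval 0.824-1.91), against 57 tags, or 2.62 (1.98-3.39), with the non-targeting siRNA. This was a 2.04-fold lower value (interval 1.24-3.43), with the rank at percentile 52.0 against 90.4. Terf1 was the 1 gene of 10 at least 2-fold lower, against 0.392% of protein-coding genes, and none was at least 2-fold higher, against 0.584%. Only 1 library stood on each side, so the spread between cultures behind this ratio is unknown.

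Terf2ip went the other way, with 2.09 CPM in D6 siH3.3 and 1.24 in D6 siNT, a ratio of 1.69 (interval 1.01-2.86) in the window it shares with Kars. Rtel1 had 0.750 and 1.24 CPM, a ratio of 0.605 (0.293-1.19). Tert had 0.857 and 0.689 (ratio 1.24, 0.576-2.70), and Rif1 had 0.803 and 0.872 (0.921, 0.436-1.91). For the other 5 genes, the first value is from D6 siH3.3 and the second from D6 siNT. Terf2 had 1.07 and 1.01 CPM, Tinf2 1.77 and 1.70, and Acd 0.857 and 0.872. Pot1a had 3.75 and 3.21 CPM and Pot1b 2.20 and 1.84. These 5 ratios lay between 0.983 (Acd) and 1.20 (Pot1b), each with an interval that included 1. D6 siNT and D6T-, both at day 6, differed at most of these promoters: 9 of the 10 genes were at least 2-fold lower in D6 siNT, which had 46481 regions, against 83.8% of protein-coding genes. The median ratio of the 10 was 0.380, beside 0.374 over all protein-coding genes. The plot of the siRNA ratios shows the 10 intervals.

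**Figure D4:**
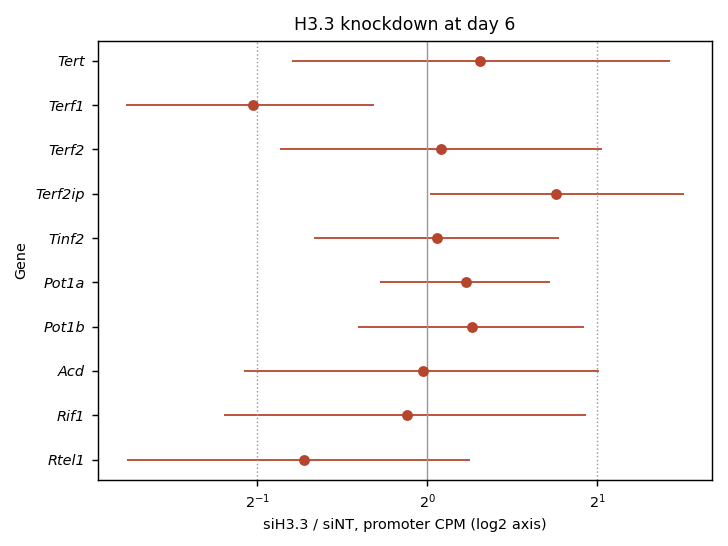
Ratio of the promoter value in D6 siH3.3 to that in D6 siNT (CPM, log2 axis) for the 10 genes, 1 library on each side. Bars are 95% exact binomial intervals and dotted lines mark 2-fold. Terf1, at 0.491, is past the line on the lower side.

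Inside the genes, 32 intragenic regions were called over the 9 libraries, in 6 of the 10 genes, and Tinf2, Acd, Rif1 and Rtel1 had none. No share over all protein-coding genes was available beside these counts, so whether they are high or low is not known. Terf1 had an intronic region at chr1:15804845-15805436, about 9.48 kb from the TSS, in D12S+ (1.08 CPM, 19 tags), D16S+ (1.23, 26 tags) and iPSCs (0.790, 21 tags). It was called in none of the other 6 libraries, whose lowest called values were 0.331 (D3) to 0.530 (D9T-) CPM. Of the 7 pluripotency markers, 3 (Nanog, Zfp42 and Dppa5a) had promoter regions in the same 3 libraries and in no other, and Esrrb, Tdh, Dppa4 and Fut9 did not have this pattern. Terf1 was the 1 gene of 10 with such an intragenic region, a pattern found in 4.61% of protein-coding genes. The 300 bases around its median summit, chr1:15805070-15805369 on the plus strand, are shown because this region was called in the late libraries alone. They held none of the 8 motifs searched, so no letter is in capitals.

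Terf1 intron: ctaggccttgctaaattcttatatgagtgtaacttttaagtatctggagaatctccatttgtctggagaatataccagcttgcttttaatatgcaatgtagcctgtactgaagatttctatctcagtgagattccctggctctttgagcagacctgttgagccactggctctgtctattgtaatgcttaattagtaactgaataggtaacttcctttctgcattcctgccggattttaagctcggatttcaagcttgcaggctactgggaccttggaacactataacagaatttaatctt

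Tert had a recurrent region at chr13:73783983-73784563, about 19.8 kb from the TSS, with its median summit in an exon. It was called in 7 libraries at 0.489 (iPSCs) to 1.14 (D12S+) CPM, and not in D9T- or D6 siNT. D0 had 2 further Tert regions at 16.1 kb and 17.2 kb. Pot1a had an intronic region at chr6:25717034-25717478, about 42.0 kb from the TSS, in 7 libraries, at 0.520 (D16S+) to 1.64 (D6T-) CPM. It was not called in iPSCs, where the lowest called value was 0.376, or in D6 siH3.3, where it was 0.429. An intronic region of Pot1b at chr17:55841719-55842050 was called in D6T- (1.08 CPM), iPSCs (0.564) and D6 siH3.3 (0.696). The map of summits by distance from the TSS shows these 4 genes.

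**Figure D5:**
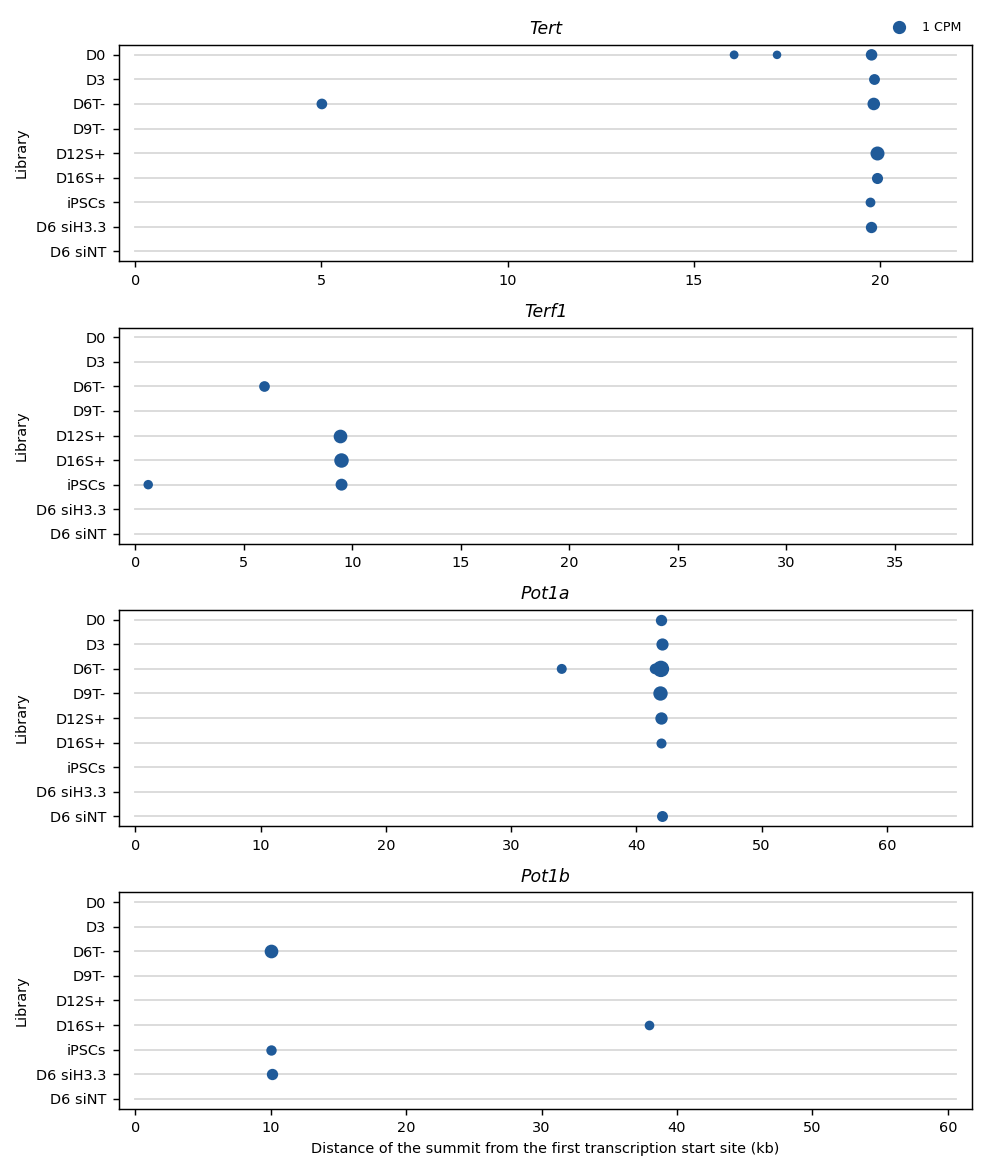
Summits of intragenic regions of Tert, Terf1, Pot1a and Pot1b by distance from the first TSS (kb, to the end of the gene) in each of the 9 libraries. Point area is proportional to CPM. The Terf1 summits near 9.48 kb are in D12S+, D16S+ and iPSCs only.

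The promoters of the 10 genes, from 250 bases before to 50 from the first TSS in mm9, had a median GC share of 58.3%, beside 55.0% over all protein-coding promoters. Their median ratio of observed to expected CpG was 0.794, beside 0.534. Motifs were searched on both strands as exact letters. GC boxes (GGGCGG) were in 8 of the 10, beside 43.4% of all promoters, ETS sites (CCGGAA) in 6, beside 17.5%, and CCAAT boxes (CCAAT) in 6, beside 37.9%. E-boxes (CACGTG) were in Tert and Acd, beside 7.78%, and AP-1 sites (TGANTCA) in Tinf2 and Rtel1, beside 6.93%. Pot1b held an NRF1 site (GCATGCGC; 738 of 22367 promoters) and a telomeric repeat unit (TTAGGG; 10.3%), and no member held the octamer (ATTTGCAT; 1.73%). A match is a description of the letters and says nothing about binding.

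Of 35 other telomere genes on a fixed list, 34 were matched in the annotation, and 28 had a promoter region in all 9 libraries. Terc, the telomerase RNA, was not matched and has no value here. Shq1 (telomerase RNP assembly), Rad50 (double-strand break repair) and Atrx (an H3.3 chaperone subunit) lacked a region at D9T- alone. Zscan4c, Zscan4d and Zscan4f, telomere regulators of early embryos and rare stem cells, had none in any library. These near-identical copies are uncertain, because ambiguously mapped reads had been removed.

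Dkc1 (dyskerin), which binds and stabilises the telomerase RNA, had 0.977 CPM at D0, 3.08 at D3, 7.39 in D6T-, 2.72 in D9T-, 3.86 in D12S+, 2.50 in D16S+ and 0.715 in iPSCs. Of the 31 listed genes with values, 23 were at least 2-fold higher at D3 than at D0 (against 61.6% of protein-coding genes), 30 in D6T- (89.5%), 19 in D16S+ (64.1%) and 4 in iPSCs (10.4%), where 1 was lower (0.947%). Relative to the library median, 1, 2, 2 and 0 of them were at least 2-fold higher. Their median ratios to D0 were 2.30, 3.84, 2.56 and 1.07, near those of all protein-coding genes.

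Wrn, the helicase lost in Werner syndrome, had the highest ratio to D0 on the list at D3 (5.65, interval 3.40-9.94), D6T- (7.91, 4.75-13.9), D9T- (3.47, 1.83-6.71), D16S+ (5.24, 3.07-9.41) and iPSCs (2.32, 1.28-4.35). These ratios share the D0 value of Wrn, 18 tags, where the lowest pileup called was 11 tags, so they are not separate observations. Ercc1 was highest in D12S+ over D0 (5.46, 3.56-8.63) and over D9T- (interval 2.01-5.66), and Ercc4 lowest in D16S+ over D12S+ (0.377, 0.244-0.573); both are subunits of one repair nuclease. Nhp2, an H/ACA protein of the telomerase particle, was highest in D6T- over D3 (2.66, 1.88-3.80). Relative to the library median, the Wrn ratios were 2.80 at D3, 2.39 in D6T-, 2.09 in D9T-, 2.33 in D16S+ and 1.87 in iPSCs, and Nhp2 had 1.62, so the iPSC value of Wrn and that of Nhp2 were under 2-fold on this scale. The Ercc1 ratios were 2.32 and 2.33. On the lower side stood Ctc1, of the CST complex, in D9T- over D6T- (0.243, 0.120-0.448) and Nbn, of the MRN break sensor, in iPSCs over D16S+ (0.259, 0.163-0.401). Shq1 was lowest in iPSCs over D0 (0.497, 0.212-1.08), and Dkc1 in D6 siNT over D6T- (0.162, 0.102-0.246). In the siRNA pair no listed gene was at least 2-fold higher, and Ctc1 was the 1 lower after the knockdown (10 and 25 tags, ratio 0.467, 0.200-1.01).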

How the data were processed

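The 9 deposited tables list the accessible regions of 1 ATAC-Seq library each. Per the labels and the study's methods, the authors mapped reads to mm9 and removed duplicates, mitochondrial and ambiguous reads; the submitters' processing notes name STAR, Picard and MACS2. Per the file headers, MACS2 2.1.0.20151222 was run without a control at a q-value of 0.05, with a fixed background and tags extended to 200 bp; no Tn5 shift is stated, so positions are approximate. The deposited signal is the pileup of tags at a summit; the deposited fold enrichment is a ratio to the background, and −log10 p and q values were not used for any result.

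Here, overlapping peaks were merged per library, and promoters, gene bodies and motifs were taken from GENCODE vM1 and the mm9 genome, whose chromosome lengths held every region. Python 3.11.15 with numpy 2.4.6, pandas 2.3.3 and scipy 1.17.1 was used, and the look-up was tested on simulated data. No test was run, because each condition had 1 library; ratios of at least 2 or at most 0.5 were counted. Named genes were the 10 members, their neighbours, and, of the other telomere genes, Dkc1, those lacking a region somewhere and the extreme ratio per comparison. The members and lists were chosen with earlier results of these data known. Library totals were 13213117 to 31714845 tags, and the main promoter pileups of the 10 members, at 12 to 199 tags, set the precision of their values. Alternatives changed the promoter definition, the number of regions, the scaling and the ratio. Promoter sequences were printed for 3 members, and those of the other 7 are not reported here.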

Additional observations from a re-analysis of the deposited data

How the results depend on the processing

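No paired analysis was possible because each condition had 1 library and the labels carry no replicate numbers. Scaling each library to its median promoter left 0 genes at least 2-fold higher than D0 at D3 and 0 at D6T-, 1 at D16S+, and 0 lower from D16S+ to iPSCs. Of the genes at least 2-fold higher than D0 in CPM, some fell below 1 on that scale. These were Acd (0.665) and Rtel1 (0.742) at D6T-, Terf1 (0.960) and Tinf2 (0.879) at D12S+, and Terf1 (0.930) at D16S+. Each median is taken over the genes with a region in that library, so this scaling leaves part of the shift over shared genes. For protein-coding genes with a region in both libraries, the median scaled ratio to D0 was 1.12 at D3, 1.15 in D6T- and 0.978 in D9T-. It was 1.04 in D12S+ and D16S+ and 1.02 in iPSCs, and 0.823 for D9T- over D6T-. With the same number of strongest regions per library, no gene was 2-fold higher in iPSCs than at D0, since the Rif1 region at D0 then drops out. All ratios of Rif1 to D0 are lost in that setting, as are those of Tert, whose D0 region also drops out. A 1.5-fold ratio gave 2 genes higher in iPSCs over D0, 8 lower from D16S+ to iPSCs, 2 lower and 1 higher in D6 siH3.3. Intragenic regions numbered 57 by midpoint, which adds promoter regions centred inside the gene, and 16 among the strongest regions. The other 45 counts stayed within 1.5 times the reported one. Of 283 single ratios, 253 stayed inside their counting interval, and of the promoter values under another definition 339 did and 1 did not (Terf2ip at D6T-, 0.701). Promoter values that were lost are not in these counts. With the summit required inside the window, Terf2ip kept values in D6T- and iPSCs only, and Pot1b in D16S+ and iPSCs only. Genes with a promoter region in every library then went from 9 to 7, and also to 7 with the same number of strongest regions. The region over the Acd TSS was added after the data were seen. Low pileups limit the precision, and 12 tags for Terf2 in D9T- was the lowest of the main promoter values of these genes. Some other pileups were lower, with 11 tags over the Acd TSS in D6 siNT. Ctc1 in D6 siH3.3 and Shq1 in iPSCs had 10 tags.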
